A study of Mus musculus with 26 samples.

Results

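Amot, Rgl3, Acot1, Slfn4 and Gja1 are 5 mouse genes that were picked because their array signal was higher in untreated D- ("deathless") S49 cells than in untreated wild-type (WT) S49 cells. The 5 genes, out of 12393 genes with a probe set of their own on the array, were found by matching their symbols in the platform annotation. They had 12 probe sets to themselves, of which 10 passed the filter on low signal, among 22626 probe sets in all and 12724 that passed. The genes were chosen by their untreated D- minus WT difference in log2 intensity on these arrays. For that reason untreated levels and changes from the untreated state are given below as descriptions. Tests compared only treated groups, while the filter and the estimate of spread used all arrays, untreated ones included.

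S49 is a mouse T lymphoma line, and D- is a variant of it. Both lines were grown in suspension and given 8-CPT-cAMP, a cell-permeable cyclic AMP analogue, at a labelled dose of 100 mM. The unit is as labelled and may be an error for micromolar. D- cells were measured untreated (4 arrays) and after 2, 6 and 24 h of 8-CPT-cAMP (3 arrays each), and WT cells were measured untreated (4 arrays) and after 2, 6 and 24 h of 8-CPT-cAMP (3 arrays each). The labels call the 26 arrays biological replicates without saying that each came from its own culture, so each p-value reflects only how far these arrays scatter, and that scatter may be technical. D- and WT are 1 line each, and a difference between them cannot be told apart from any other difference between these particular lines. The titles of the treated WT arrays carry the word untreated while their source names and descriptions give the treatment, and these fields were used here. The growth protocol of the WT samples names D- cells, while their titles and descriptions name WT cells. The line was taken from the titles and descriptions.

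The 5 genes have separate roles. Amot encodes angiomotin, a scaffold at cell junctions and the actin cytoskeleton that binds the Hippo pathway effector YAP. Rgl3 encodes an exchange factor that loads Ral GTPases downstream of Ras. Acot1 is a cytosolic acyl-CoA thioesterase, which splits long-chain acyl-CoA into free fatty acid and coenzyme A, and in mouse liver it is a target of PPAR alpha. Slfn4 is a Schlafen family gene known as interferon-inducible in mouse macrophages, and Gja1 encodes connexin 43, the subunit of a widespread gap junction channel. Cyclic AMP acts largely through protein kinase A, which phosphorylates the factor CREB, and CREB binds the cyclic AMP response element (CRE) TGACGTCA or its shorter core TGACG.

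All values are log2 of the deposited normalized intensity, 1 unit being a doubling. A group mean under 5 (an intensity of 32) was treated as too dim to place, so a change against such a group is given as a bound. Array medians lay between 41.6 and 45.4 intensity units. In the deviations from group means, 38.8% of the variance lay on 1 axis that split the arrays into a cluster of 10 (replicates 1 and 2 of the untreated cells, replicate 1 of each treated group, both lines) and a cluster of 16. The labels name no batch for this split, and both lines and all times are in each cluster. The split came from these same deviations, so fitting within a cluster, or with it as a block, removes scatter that defined it. The limma p-values of such fits tend to be too small and are descriptive wherever they are given below. Several of the 5 genes moved with the split, and values by cluster are given beside them.

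The T cell label was checked on 11 measured markers. Cd3d, Cd3e, Cd3g and Thy1 were above 5 on all 26 arrays, Cd5 was below 5 on all of them, and Cd247, a chain of the T cell receptor complex, averaged 4.55 in D- arrays and 9.62 in WT arrays. Cd2, a T cell adhesion receptor, averaged 9.90 in D- arrays and 5.76 in WT arrays. Summed T cell marker intensity ranged from 12100 to 30000 in D- arrays and from 14000 to 29100 in WT arrays.

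In untreated cells, the line difference placed the 5 genes at positions 1 (Slfn4), 2 (Amot), 3 (Rgl3), 5 (Acot1) and 9 (Gja1) among 7435 tested genes. The genes between them that are not members were Cd2, Cyp2c23, Fbln2 and Glmp, with D- minus WT differences of 3.74, 2.92, 2.70 and 2.50. All untreated D- arrays were above all untreated WT arrays for 4.57% of tested probe sets, a figure from the arrays that chose the genes. Gja1 stood at 2.41, below these 4 genes, and Tsc22d1, which is not a member, came next at 2.19. These positions used fitted differences, also where the WT mean was too dim to place. As bounds, the untreated differences were at least 3.89 for Slfn4, 4.2 for Amot and 0.83 for Gja1.

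**Figure D1:**
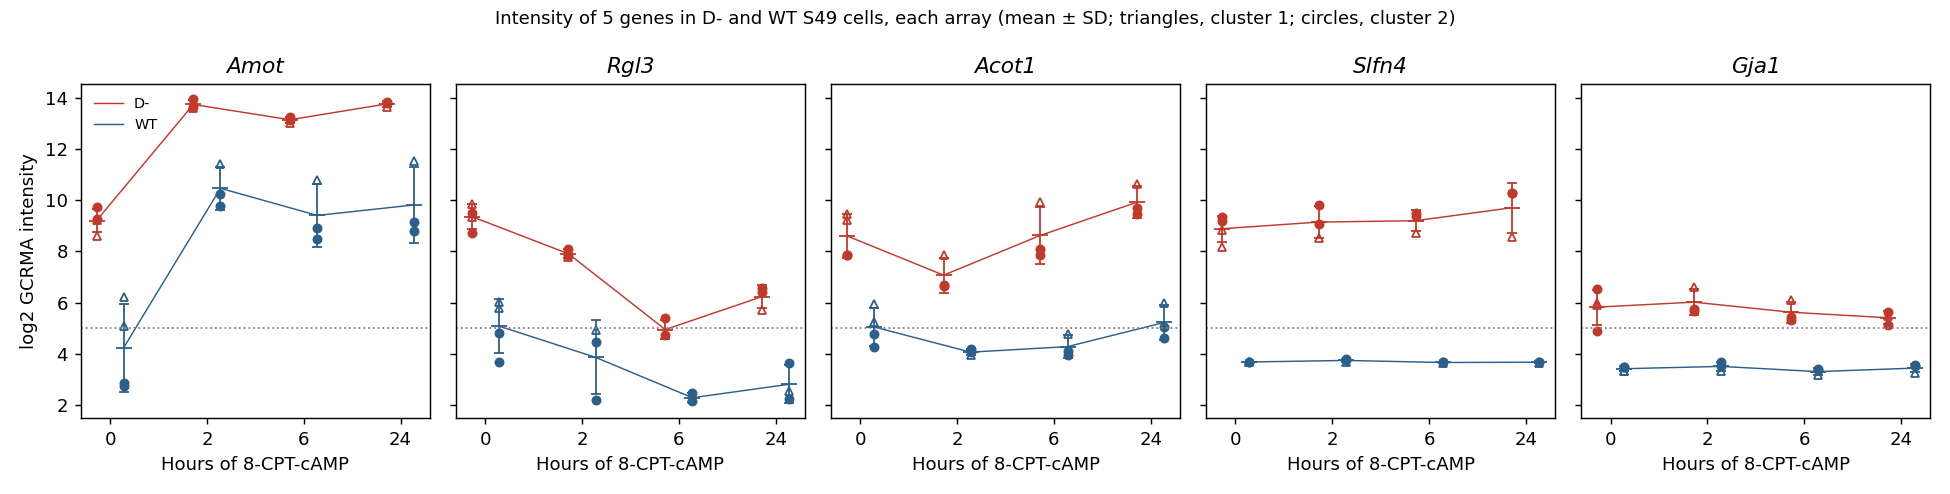
Log2 intensity (vertical axis) of the 5 genes on each array by hours of 8-CPT-cAMP (horizontal axis, 0 being untreated, times evenly spaced), with D- in red and WT in blue. Horizontal ticks and bars are the group mean and SD, triangles and circles are the array clusters of 10 and 16, and the dotted line is 5. On the probe sets shown, Amot read higher on treated than on untreated arrays in both lines, Rgl3 read lower on treated than on untreated D- arrays, and Slfn4 and Gja1 stayed below 4 on all WT arrays.

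On its brightest probe set, Amot read higher on every treated array than on any untreated array of the same line, in D- and in WT cells. It was the only member above 8 on treated WT arrays. Its brightest probe set (1454890_at) read 13.61, 13.96 and 13.65 in D- cells at 2 h, against 11.41, 9.76 and 10.23 in WT cells at 2 h. At 6 h it read 13.03, 13.15 and 13.25 in D- cells, against 10.79, 8.93 and 8.50 in WT cells. At 24 h it read 13.63, 13.81 and 13.85 in D- cells, against 11.52, 8.78 and 9.15 in WT cells. Every treated D- array was thus above every treated WT array, and the D- arrays lay within a narrower range than the WT arrays at each time. The D- level was 9.68-fold higher at 2 h (log2 3.27 ± 0.76 SE, 95% interval 1.69 to 4.86, limma adjusted p = 0.0108). It was 13.3-fold higher at 6 h (3.73 ± 0.76, limma adjusted p = 0.00315) and 15.4-fold higher at 24 h (3.95 ± 0.76, limma adjusted p = 0.000434). Without WT replicate 2 at 2 h, the 2 h difference was 2.92 with a limma adjusted p of 0.0663.

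In untreated cells the brightest Amot probe set, the only one of the gene whose untreated arrays did not overlap between the lines, read 8.61, 9.21, 9.26 and 9.74 in D- arrays. It read 5.09, 6.24, 2.87 and 2.75 in WT arrays. The WT values spread widely, with replicates 1 and 2 above 5 and replicates 3 and 4 near background. As a description, the D- level after 2, 6 and 24 h was 23.2-fold, 15.3-fold and 23.6-fold that of untreated D- cells. The WT level was higher than in untreated WT cells by at least 5.47, 4.41 and 4.81 log2 units at those times. All 9 treated WT arrays, at 8.50 to 11.52, covered the range of the untreated D- arrays (8.61 to 9.74), so the treated WT level overlapped the untreated D- level.

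The spread of Amot in WT cells ran with the array clusters. The WT arrays in the cluster of 10 averaged 5.66 when untreated and read 11.41, 10.79 and 11.52 at 2, 6 and 24 h. The WT arrays in the cluster of 16 averaged 2.81 when untreated, and 9.99, 8.72 and 8.96 at 2, 6 and 24 h. In D- cells the treated arrays of both clusters lay between 13.03 and 13.96. Within the cluster of 16 the line difference was 3.81, 4.48 and 4.87 at 2, 6 and 24 h (limma adjusted p = 4.28e-07, 8.59e-08 and 2.94e-08). Within the cluster of 10, which has 1 array per treated group, it was 2.20, 2.24 and 2.11 (limma adjusted p = 0.357, 0.278 and 0.137).

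Over all arrays no step between treated times passed the test on this probe set. The D- level at 6 h minus 2 h was -0.60 ± 0.76 (limma adjusted p = 0.611), and the WT level at 6 h minus 2 h was -1.06 ± 0.76 (limma adjusted p = 0.349). In the cluster of 16 alone these steps were -0.61 in D- cells (limma adjusted p = 0.0465) and -1.28 in WT cells (limma adjusted p = 0.00106). With the mean of all Amot probe sets they were -1.01 and -0.95 (limma adjusted p = 0.0236 and 0.0344). The line difference at 24 h minus that at 2 h was 0.67 ± 1.08 (95% interval -1.56 to 2.91, limma adjusted p = 0.815), an interval that holds values on both sides of 0, and within the cluster of 16 it was 1.05 (limma adjusted p = 0.03).

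The other Amot probe sets were dimmer and did not follow the same course. The second (1427584_at) read 8.21, 8.79 and 9.78 in D- cells at 2 h, against 6.61, 5.30 and 6.09 in WT cells at 2 h, a 7.60-fold difference (limma adjusted p = 1.61e-05). In D- cells its level at 6 h was lower than at 2 h by 1.88 log2 units (limma adjusted p = 0.000803), and in WT cells the 6 h level was at least 1 log2 unit under the 2 h level, with a limma adjusted p of 0.00179. On the brightest probe set the same step did not pass the test over all arrays. Untreated arrays of the second set averaged 4.87 in D- cells and 4.26 in WT cells, both under 5, and overlapped between the lines. Its WT means at 6 and 24 h were 4.25 and 4.35, so only at 2 h did its WT arrays lie above all untreated WT arrays. The third (1425907_s_at) read 6.17 to 7.10 on all 18 treated arrays and was higher in D- cells only at 2 h (1.43-fold, limma adjusted p = 0.00185), with differences of 0.00 at 6 h and 0.07 at 24 h. Its untreated means were 6.28 in D- cells and 6.24 in WT cells, with overlapping arrays. Its treated arrays lay clear of the untreated arrays of their line only in D- cells at 2 h.

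The promoter of Amot is shown because, on its brightest probe set, treated arrays read above untreated arrays in both lines. The window runs from 250 bases before to 50 bases after the annotated start, from RefSeq on GRCm38.p6, at chrX:145487590-145487889 on the minus strand, printed 5′ to 3′ with the CRE core in capitals.
Amot promoter: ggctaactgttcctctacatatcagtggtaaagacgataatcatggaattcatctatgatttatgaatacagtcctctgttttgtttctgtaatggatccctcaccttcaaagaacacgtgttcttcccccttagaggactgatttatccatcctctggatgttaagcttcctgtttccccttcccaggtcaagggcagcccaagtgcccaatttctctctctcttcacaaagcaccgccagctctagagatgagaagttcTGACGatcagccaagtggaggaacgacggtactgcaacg
The core TGACG, searched on both strands, occurred 1 time, 11 bases after the start, and the full CRE TGACGTCA did not occur in the window. Of 32851 mouse promoters of that length, 20.8% held the core and 1.79% held the full element. A match is a string of letters and not a measured binding site.

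Rgl3 read lower on every treated D- array than on any untreated D- array, and it was below 5 on all treated WT arrays. It read 7.77, 7.85 and 8.11 in D- cells at 2 h, against 4.92, 4.46 and 2.21 in WT cells at 2 h. At 6 h it read 4.73, 4.73 and 5.39 in D- cells, against 2.24, 2.48 and 2.14 in WT cells, and at 24 h 5.73, 6.42 and 6.56 in D- cells, against 2.56, 2.24 and 3.64 in WT cells. The lines did not overlap at any treated time, but the highest WT array at 2 h (4.92) was above the lowest D- array at 6 h (4.73). Rgl3 was at least 7.50-fold higher in D- cells at 2 h (limma adjusted p = 7.21e-05) and at least 2.35-fold higher at 24 h (limma adjusted p = 8.35e-05). Rgl3 passed the filter through its D- arrays (11 at 5 or above, against 2 WT arrays), so it had to differ between the lines somewhere and these p-values are descriptive. At 6 h both group means were under 5, at 4.95 ± 0.38 in D- cells and 2.29 ± 0.17 in WT cells (SD, n = 3 each), so no fold is given although the limma adjusted p was 0.00444. Within the cluster of 10 Rgl3 read 7.77 in D- cells and 4.92 in WT cells at 2 h (limma adjusted p = 0.0922). In the cluster of 16 it averaged 7.98 in D- cells and 3.33 in WT cells at 2 h (limma adjusted p = 0.000472).

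Within the D- line Rgl3 fell between 2 and 6 h. The 6 h level was at least 7.50-fold lower than the 2 h level (limma adjusted p = 0.00069), with no overlap between the arrays of these times. The 24 h arrays were all above the 6 h arrays, by a mean of at least 1.23 log2 units, and this step did not pass the test (limma adjusted p = 0.139). In untreated cells, which are described only, Rgl3 read 9.36, 9.85, 8.72 and 9.52 in D- arrays, against 5.79, 6.03, 3.70 and 4.83 in WT arrays. The D- level after 2 h was 1.46 log2 units below the untreated D- level, after 6 h at least 4.36 units below, and after 24 h 3.13 units below. The WT means also read lower, at 5.08 untreated and 3.86, 2.29 and 2.81 at 2, 6 and 24 h. The treated WT means were too dim to place, and the WT step from 2 to 6 h had a limma adjusted p of 0.051. Across the 13 D- arrays Rgl3 and Amot ran in opposite directions (Pearson r = -0.72), which describes points that share treatment time.

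The promoter of Rgl3 is shown for comparison with that of Amot. The treated D- level of Amot on its brightest probe set lay above, and that of Rgl3 below, the untreated D- level. The Rgl3 promoter lies at chr9:21989404-21989703 on the minus strand of GRCm38.p6 (RefSeq), over the same window around the start, and nothing is in capitals because the CRE core was not found.
Rgl3 promoter: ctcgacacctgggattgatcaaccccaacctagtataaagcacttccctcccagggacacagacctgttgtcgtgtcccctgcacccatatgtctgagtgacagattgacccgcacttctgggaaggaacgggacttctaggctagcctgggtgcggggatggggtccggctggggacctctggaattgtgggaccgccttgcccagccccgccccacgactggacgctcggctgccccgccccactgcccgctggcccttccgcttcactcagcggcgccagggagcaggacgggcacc
Neither TGACG nor TGACGTCA occurred in these letters on either strand. The core was also absent from the Acot1 window, occurred 1 time in the Slfn4 window and 2 times in the Gja1 window, and the full element was in none of the 5 windows.

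Acot1 was the member whose D- level passed the test as higher at 6 h than at 2 h, a call that depended on the processing and on single arrays. It read 7.86, 6.70 and 6.66 in D- cells at 2 h, against 3.95, 4.07 and 4.18 in WT cells at 2 h. At 6 h it read 9.92, 8.09 and 7.87 in D- cells, against 4.78, 4.11 and 3.96 in WT cells, and at 24 h 10.63, 9.46 and 9.69 in D- cells, against 5.99, 4.63 and 5.06 in WT cells. All 9 treated D- arrays were above all 9 treated WT arrays. Acot1 was at least 4.22-fold higher in D- cells at 2 h (limma adjusted p = 0.00123), at least 12.4-fold higher at 6 h (limma adjusted p = 1.54e-05) and 26-fold higher at 24 h (limma adjusted p = 1.25e-06).

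Between treated times, the D- level of Acot1 at 6 h was higher than at 2 h by 1.55 ± 0.55 log2 units (limma adjusted p = 0.0447). That call was lost without D- replicate 1 at 6 h (0.90, limma adjusted p = 0.255) and without D- replicate 2 or 3 at 2 h (1.37 and 1.34, limma adjusted p = 0.14 and 0.147). It was also lost with quantile normalization added (1.46, limma adjusted p = 0.0604), median centring (1.51, 0.0527), no filter (1.55, 0.0771) and within the cluster of 10 (2.06, 0.0927). The 24 h level was a further 1.30 ± 0.55 above the 6 h level in D- cells (limma adjusted p = 0.118), and the WT step was at least 0.23 (limma adjusted p = 0.207). With the cluster as a block the D- step passed (1.30, limma adjusted p = 0.00187), as it did within the cluster of 16 (1.60, limma adjusted p = 9.2e-05), and so did the WT step (limma adjusted p = 0.0104 and 0.00302). The line difference at 24 h exceeded that at 2 h by 1.69 ± 0.77 (95% interval 0.09 to 3.29, limma adjusted p = 0.205, or 0.0057 with the cluster as a block). Untreated arrays read 9.21, 9.48, 7.87 and 7.88 in D- cells, against 5.24, 5.96, 4.76 and 4.25 in WT cells. The D- arrays of the cluster of 10 read above those of the cluster of 16 in each group, at a mean of 9.34 against 7.87 when untreated and 9.92 against 7.98 at 6 h. Within the cluster of 10 it read 7.86 in D- cells and 3.95 in WT cells at 2 h (limma adjusted p = 0.0874), and within the cluster of 16 it averaged 6.68 in D- cells and 4.12 in WT cells (limma adjusted p = 2.49e-06).

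A probe set that the annotation gives to both Acot2 and Acot1 (1422997_s_at) was also higher in D- cells, and its signal cannot be split between these paralogs. It was 5.83-fold higher at 6 h (limma adjusted p = 0.000466) and 5.91-fold higher at 24 h (limma adjusted p = 9.6e-05), while at 2 h the difference was 1.36 with a limma adjusted p of 0.0663. The probe set specific to Acot2, the mitochondrial paralog, differed by 0.45, 0.47 and 0.44 at 2, 6 and 24 h (limma adjusted p = 0.161, 0.131 and 0.0699).

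Slfn4 read above 8 on every D- array and below 5 on every WT array. It read 8.54, 9.81 and 9.09 in D- cells at 2 h, 8.73, 9.49 and 9.38 at 6 h, and 8.58, 10.28 and 10.27 at 24 h. The WT arrays read between 3.63 and 3.81 at all times, with no overlap between the lines. The D- level was at least 17.7-fold higher at 2 h (limma adjusted p = 9.67e-10), at least 18.4-fold higher at 6 h (limma adjusted p = 7.02e-10) and at least 26.2-fold higher at 24 h (limma adjusted p = 8.43e-11). Slfn4 passed the filter through its 13 D- arrays and no WT array, so it had to differ between the lines and these p-values are descriptive.

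Slfn4 had no step between treated times that passed the test in D- cells. The 6 h level minus the 2 h level was 0.05 (95% interval -0.68 to 0.78, limma adjusted p = 0.937), and the 24 h level minus the 6 h level was 0.51 (95% interval -0.22 to 1.24, limma adjusted p = 0.383). D- replicate 1 at 24 h (8.58) lay apart from the other 24 h arrays (10.28 and 10.27). Without it the 24 h level minus the 6 h level was 1.08 (limma adjusted p = 0.0147). In untreated cells the D- arrays read 8.19, 8.84, 9.34 and 9.18. The D- arrays of the cluster of 10 read lower than those of the cluster of 16, at 8.58 against a mean of 10.28 at 24 h, while the WT level was 3.63 and 3.70 in these clusters. Within the cluster of 16 the D- level at 24 h minus that at 6 h was 0.84 (limma adjusted p = 0.00473), and within the cluster of 10 it was -0.15 (limma adjusted p = 0.882). A probe set shared by Slfn4 and Slfn3 (1450322_s_at) stayed between 4.63 and 5.95 on treated D- arrays and between 2.98 and 5.77 on treated WT arrays. Limma called it higher in D- cells only at 24 h, by at least 0.5 log2 units (limma adjusted p = 0.000174). It passed the filter through its D- arrays (7 at 5 or above, against 2 WT arrays), so that p-value is descriptive.

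The standing probe set of Gja1 read above 4 on every D- array and below 4 on every WT array. Probe set 1415800_at read 6.62, 5.68 and 5.76 in D- cells at 2 h, 6.10, 5.45 and 5.33 at 6 h, and 5.46, 5.14 and 5.63 at 24 h. The treated WT arrays read 3.16 to 3.69, so the lines did not overlap and all WT arrays were below 5. The D- level was at least 2.03-fold higher at 2 h (limma adjusted p = 6.2e-06), at least 1.55-fold higher at 6 h (limma adjusted p = 1.52e-05) and at least 1.33-fold higher at 24 h (limma adjusted p = 2.32e-05). Gja1 passed the filter through 12 D- arrays and no WT array, so it had to differ between the lines and these p-values are descriptive. Its D- array in the cluster of 10 read 6.62 at 2 h and 6.10 at 6 h, against means of 5.72 and 5.39 in the cluster of 16, and the lines did not overlap in either cluster. Untreated arrays read 5.91, 5.98, 4.89 and 6.52 in D- cells, against 3.35, 3.34, 3.50 and 3.49 in WT cells. The line difference at 24 h minus that at 2 h was -0.54 (95% interval -1.40 to 0.31, limma adjusted p = 0.518).

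Gja1 had 6 probe sets, and they did not all show the difference. The 3 further sets that passed the filter (1437992_x_at, 1438650_x_at and 1438945_x_at, a kind of set that may pick up related sequences) were also above WT on every treated D- array. They passed through 11, 10 and 11 D- arrays and no WT array, so they had to differ between the lines and this is descriptive. At 24 h the D- means of 1438650_x_at and 1438945_x_at were 4.72 and 4.78, too dim to place. Of the sets that did not pass the filter, 1438973_x_at averaged 4.21, 3.70 and 3.45 in D- cells at 2, 6 and 24 h, against 2.65, 2.58 and 2.62 in WT cells. The other, 1415801_at, averaged 4.72, 4.43 and 4.82 in D- cells at those times, against 4.79, 4.58 and 4.66 in WT cells, and so did not separate the lines. This last set had the highest mean over all arrays of the 6, and 1415800_at was taken to stand for the gene after these values were seen, as the brightest set that passed the filter.

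**Figure D2:**
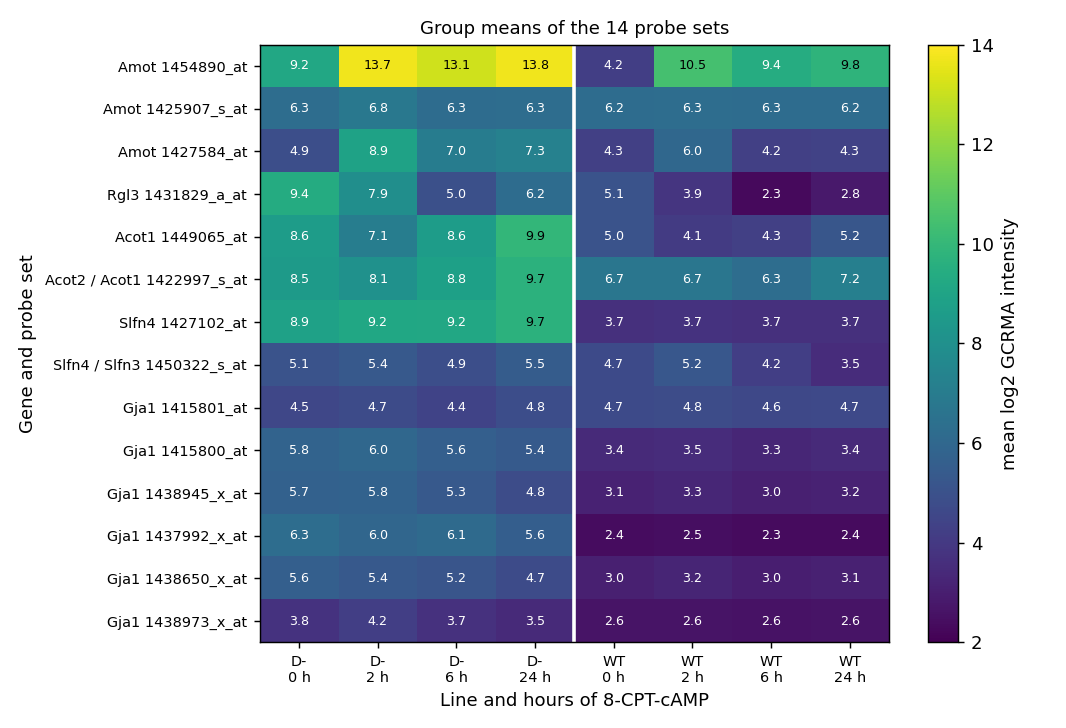
Mean log2 intensity (colour and printed value) of the 14 probe sets of the 5 genes, 2 of them shared with a paralog, in each group; columns are line and hours of 8-CPT-cAMP, with 4 arrays in untreated and 3 in treated groups. The Gja1 set 1415801_at and the Amot set 1425907_s_at look alike in both lines at 6 and 24 h, where the other sets are brighter in D- cells.

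Each of the 5 genes was called higher in D- cells at 2 h, where 2.06% of all tested probe sets were called higher and 3.99% lower. The same held at 6 h, with 3.15% of all tested probe sets called higher and 3.78% lower, and at 24 h, with 15.8% higher and 13.4% lower. The arrays of the lines did not overlap for any of the 5 at these times, as was so with D- higher for 9.69%, 12.3% and 17.7% of tested probe sets at 2, 6 and 24 h. Rgl3, Slfn4 and Gja1 passed the filter only through D- arrays, so these counts are descriptive. Of the 10 tested probe sets, 10, 9 and 9 were called higher at 2, 6 and 24 h, and the exception was 1425907_s_at of Amot. All 9 treated D- arrays lay above all 9 treated WT arrays for 76 of 12724 probe sets (0.597%), among them the standing sets of Amot, Acot1, Slfn4 and Gja1 but not that of Rgl3.

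Calls between treated times are not weighed against those between the lines, because the members were chosen for a line difference. From 2 to 6 h in D- cells, Acot1 was the 1 gene called higher and Rgl3 the 1 called lower, against 13.3% and 9.09% of all tested probe sets. From 6 to 24 h in D- cells limma called none of the 5, with 2 (Acot1 and Rgl3) at an unadjusted p under 0.05, and 7.2% of all tested probe sets were called higher and 7.72% lower. In WT cells limma called none from 2 to 6 h, with Rgl3 alone at an unadjusted p under 0.05 (11.4% of all higher, 10.2% lower). From 6 to 24 h in WT cells it called none and none had an unadjusted p under 0.05 (14.2% of all higher, 16.7% lower). In WT cells both means of each step were under 5 for Rgl3, Slfn4 and Gja1. The same held for Acot1 from 2 to 6 h. Such steps were too dim to place, so the missing calls do not show a steady level. The change in line difference between 2 and 24 h was called for none of the 5 by limma, with Acot1 alone at an unadjusted p under 0.05, against 6.11% higher and 3.09% lower among all tested probe sets.

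**Figure D3:**
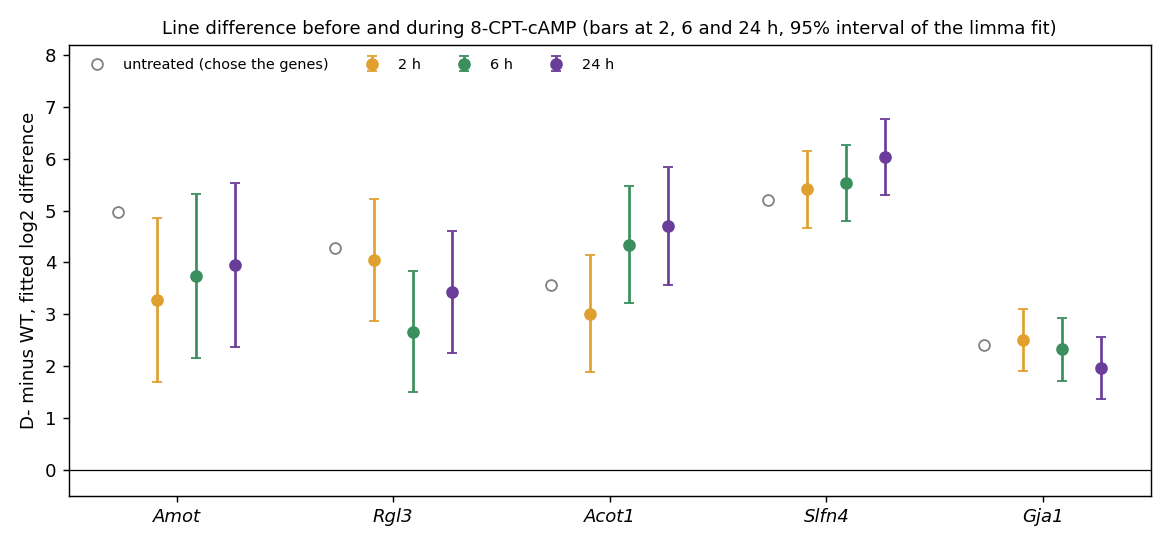
Fitted D- minus WT difference in log2 intensity (vertical axis) for each gene, untreated (open grey points, no interval because these arrays chose the genes) and at 2, 6 and 24 h (filled points, bars are the 95% interval of the limma fit, 3 arrays per line and time). All filled points and their intervals lie above 0; where the WT mean was under 5 the plotted difference includes values too dim to place, and the text gives a bound.

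Relatives and pathway partners of the members were read from lists, and most of them did not pass the test between the lines. The medians in this and the next paragraphs are of the D- minus WT difference, and the median over all tested probe sets was -0.01, 0.01 and 0.00 at 2, 6 and 24 h. Of 13 tested genes of the angiomotin and Hippo list, limma called none higher in D- cells at any treated time and 1, 0 and 2 lower at 2, 6 and 24 h, with list medians of -0.01, -0.03 and -0.23. At an unadjusted p under 0.05 none was higher at any treated time, and 1, 1 and 5 were lower. The share called lower over all tested probe sets was 3.99%, 3.78% and 13.4% at these times, so 2 of 13 at 24 h is near it, and the counts of the lists below are likewise to be read against the shares of all tested probe sets given above. Stk4, the Hippo kinase MST1, averaged 7.74 ± 0.26 in D- cells and 8.48 ± 0.30 in WT cells at 2 h (SD, n = 3 each; limma adjusted p = 0.00931). Patj, a polarity scaffold of cell junctions, averaged 4.00 ± 0.49 in D- cells and 7.50 ± 0.45 in WT cells at 24 h (SD, n = 3 each), lower by at least 2.50 log2 units (limma adjusted p = 2.55e-09). Its untreated means were 3.54 in D- cells and 3.49 in WT cells. It passed the filter on its treated WT arrays, so that p-value is descriptive. Of 6 tested genes of the Ral list, limma called none at 2 and 6 h (3 and 1 at an unadjusted p under 0.05, in either direction) and 1 at 24 h, Rgl2, which was lower in D- cells at 24 h by 0.38 log2 units (9.97 in D- cells, 10.35 in WT cells, limma adjusted p = 0.0161).

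Among 8 tested acyl-CoA thioesterases other than Acot1, 0, 0 and 1 were higher in D- cells at 2, 6 and 24 h and 1, 1 and 2 were lower, with list medians of -0.15, 0.00 and -0.01. At an unadjusted p under 0.05, 1, 1 and 2 were higher and 3, 1 and 2 lower. Acot13, a thioesterase associated with mitochondria, was lower in D- cells at each treated time, by 0.77, 1.04 and 1.29 log2 units (limma adjusted p = 0.000802, 2.39e-05 and 3.21e-07). Acot7 was lower in D- cells at 24 h, by 0.99 log2 units (limma adjusted p = 1.44e-05). Acot5, a gene of the same cluster as Acot1, averaged 7.84 ± 0.87 in D- cells and 4.23 ± 0.64 in WT cells at 24 h (SD, n = 3 each), higher by at least 2.84 log2 units (limma adjusted p = 9.32e-05). At 2 h it averaged 5.57 in D- cells and 4.81 in WT cells, a difference that did not pass the test (limma adjusted p = 0.603). Of 14 tested PPAR alpha targets in fatty acid oxidation, Acadl, the long-chain acyl-CoA dehydrogenase, was the 1 gene higher in D- cells at each treated time, by 1.67, 1.87 and 2.52 log2 units (limma adjusted p = 0.0409, 0.0191 and 0.000389). Acadvl and Ech1 were lower at 24 h, by 0.63 and 0.44 log2 units (limma adjusted p = 0.0398 and 0.0272), and the list medians were -0.03, -0.11 and -0.25.

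At the treated times where limma called them, the tested Schlafen relatives of Slfn4 were lower in D- cells. Slfn2, which is known for a role in T cell quiescence in mice, averaged 6.49 in untreated D- cells and 6.62 in untreated WT cells. It averaged 6.55, 6.61 and 6.68 in D- cells at 2, 6 and 24 h, against 7.17, 8.12 and 8.96 in WT cells. It was lower in D- cells at 6 h (1.52 log2 units, limma adjusted p = 1.33e-05) and at 24 h (2.28 log2 units, limma adjusted p = 1.54e-08), and the 2 h difference did not pass the test (limma adjusted p = 0.0548). Slfn3 averaged 4.06 in D- cells and 5.83 in WT cells at 2 h, lower by at least 0.83 log2 units (limma adjusted p = 2.48e-06), and both lines were under 5 at 6 and 24 h. Its untreated means were 3.89 in D- cells and 4.55 in WT cells. It passed the filter on its WT arrays at 2 h, so that p-value is descriptive. Of 10 tested interferon-induced genes, 0, 1 and 3 were higher in D- cells at 2, 6 and 24 h and 0, 1 and 1 were lower, with list medians of -0.17, -0.09 and -0.28. At an unadjusted p under 0.05, 1, 1 and 3 were higher and 3, 1 and 3 lower. The antiviral GTPase gene Mx1 was higher in D- cells at 6 and 24 h (1.15 and 1.70 log2 units, limma adjusted p = 0.0074 and 3.35e-05), and Ifit1, which binds viral RNA, was lower (-2.24 and -1.56, limma adjusted p = 0.00341 and 0.0137). Rsad2 and Bst2 were higher in D- cells at 24 h, by 0.60 and 0.58 log2 units (limma adjusted p = 0.0199 and 0.00735). Of 3 tested connexins and junction partners of Gja1, Gjc1, which encodes connexin 45, was higher in D- cells at 24 h by 0.77 log2 units (limma adjusted p = 0.00233). At 2 and 6 h limma called none of them, with Gjc1 alone at an unadjusted p under 0.05.

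**Figure D4:**
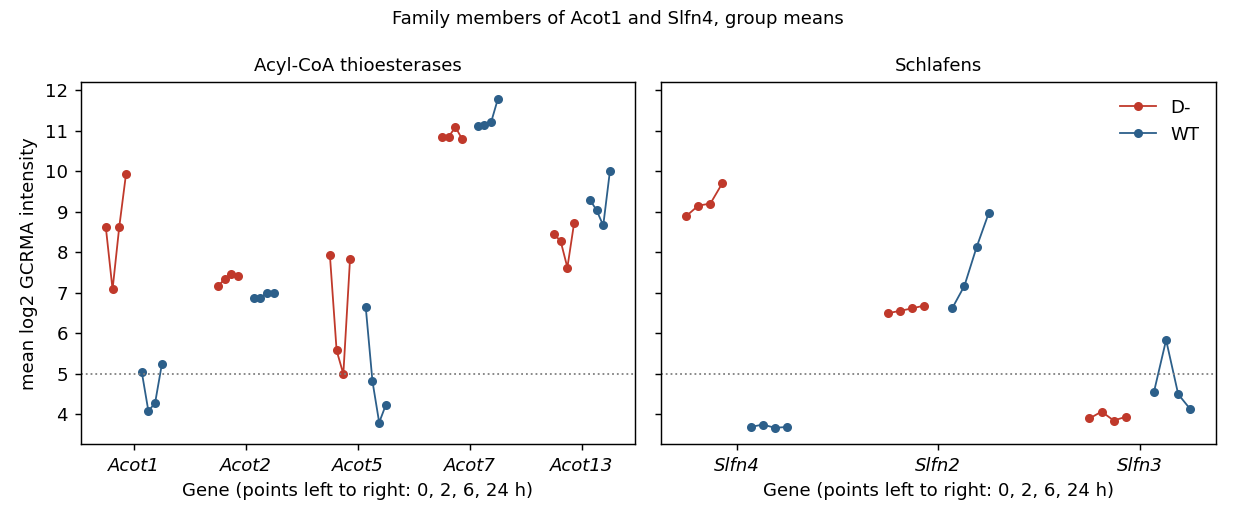
Mean log2 intensity (vertical axis) of Acot1 and 4 other acyl-CoA thioesterases (left) and of the 3 Schlafen genes with tested probe sets of their own (right), with D- in red left of WT in blue and points running 0, 2, 6 and 24 h within each line. The dotted line is 5. Slfn2 averaged 7.17, 8.12 and 8.96 in WT cells at 2, 6 and 24 h and stayed between 6.49 and 6.68 in D- cells, while Slfn4 was high in D- cells and under 4 in WT cells.

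The genes beside each member on its chromosome, 5 measured genes on either side in the RefSeq order of GRCm38.p6, were read at the treated times. At 2 h limma called none of the 23 tested neighbours higher in D- cells, with 1 higher at an unadjusted p under 0.05, and Slfn3 was the 1 called lower. Of all tested probe sets, 2.06% were called higher and 3.99% lower at that time. At 6 h Apex2 was called higher, and Slfn2 and Slfn3 were called lower, where 3.15% and 3.78% of all tested probe sets were. Slfn3 averaged 3.84 in D- cells and 4.49 in WT cells at 6 h, both too dim to place. Its calls are descriptive, since it passed the filter on its WT arrays at 2 h. At 24 h 6 of the 23 were called higher and 2 lower, where 15.8% and 13.4% of all tested probe sets were. Those called higher were Alg13 (1.12) and Apex2 (0.48) beside Amot, Elof1 (0.42) beside Rgl3, Riox1 (0.67) and Acot5 beside Acot1, and Asf1a (0.45) beside Gja1, all with a limma adjusted p of 0.0286 or less. Numb (-0.62) beside Acot1 and Slfn2 beside Slfn4 were lower at that time.

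The genes whose levels over all 26 arrays were most like each member were found by Pearson correlation among tested genes. For Amot they were Snx18 (0.922), Hdhd3 (0.887) and Nfil3 (0.875), and for Rgl3 they were Nedd4l (0.916), Brd7 (0.882) and Ifi30 (0.876). For Acot1 they were Cd2 (0.917), Ldhb (0.916) and Pgam2 (0.903). For Slfn4 they were Hacd2 (0.936), Gja1 (0.922) and Ldhb (0.915), and for Gja1 they were Slfn4 (0.922), Selenom (0.907) and Lin7c (0.894). These values describe arrays that share line, treatment time and cluster. Within the 13 D- arrays alone Slfn4 and Gja1 had r = -0.50.

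Angiomotin, connexin 43 and Slfn4 are also known from other cell types, so markers of these were read on the same arrays. In bulk samples fewer cells of a type and less RNA per cell cannot be told apart. Of 7 endothelial markers, Cdh5, Kdr, Tek and Tie1 were below 5 on all 26 arrays, while Pecam1 (7.61 in D- arrays, 8.17 in WT arrays) and Eng (5.90 and 6.12) were above 5 on all 26 and Flt1 on 25. The summed list ranged from 240 to 616 intensity units in D- arrays and from 255 to 855 in WT arrays. Of 10 fibroblast or stromal markers, 7 were below 5 on all arrays, among them Col1a1, Col1a2, Col3a1, Dcn and Pdgfra, while Acta2 averaged 7.86 in D- arrays and 7.86 in WT arrays, Fn1 reached 5 on 16 arrays and Pdgfrb on 4. The sum ranged from 255 to 481 in D- arrays and from 254 to 741 in WT arrays. Of 12 myeloid markers, Lyz2, Cd14, Mpo, Cd68, S100a8 and Csf3r were below 5 on all arrays, while Csf1r and S100a9 were above 5 on all 26 and Adgre1 on 21, and Itgam, Elane and Fcgr3 on 6, 5 and 1. The sum ranged from 219 to 308 in D- arrays and from 223 to 419 in WT arrays. All 6 epithelial markers were below 5 on all arrays, and the B cell sum ranged from 133 to 216 in D- arrays and from 141 to 260 in WT arrays. The erythroid sum ranged from 67.6 to 85.6 in D- arrays and from 62.4 to 80.1 in WT arrays. The 3′ minus 5′ signal of Gapdh, a check of RNA integrity, had group means between -0.093 and 0.096 log2 units. The part of these signals in the results was not tested.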

How the data were processed

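The deposited table held linear intensity per probe set from 26 Affymetrix arrays, made by the authors with GCRMA per the submitters' processing notes (version not given in the sources used here). No source used here says if D- and WT arrays were normalized together. Intensity ran from 2 to 83530.7, and depth is not defined for arrays, so their number limits the precision. Log2 of the deposited intensity was taken. Of 22690 probe sets 64 array controls were left out, and 20380, 691 and 1555 of the rest carried 1, several or no symbol. The 12724 probe sets that reached log2 5 on 3 or more arrays entered the tests. Means of the 8 groups were fitted with limma 3.58.1 in R 4.3.3 (lmFit, eBayes, 18 residual degrees of freedom, Benjamini-Hochberg adjustment over all tested probe sets, threshold 0.05), with two-sided tests of line differences at each treated time, steps between treated times, and the change in line difference. Changes against a group mean under 5 are bounds, the brighter mean minus 5. A gene was represented by its brightest tested probe set. Named genes were the 5 members, the 3 most correlated genes per member and, per list, up to 4 genes with the largest difference among those called at the most times. For 1 such gene the values are not reported here. Other genes named (chromosomal neighbours, Acot2, Acot5, Acot7, Acadvl, Ech1, Rsad2 and Bst2) were chosen after their values were seen. The members and lists were chosen with earlier results of these data known, and no adjustment over a list alone was made. On simulated data for D- minus WT at 24 h over 12724 probe sets, 32.8%, 76.1% and 98.4% of changes of 0.5, 1 and 2 log2 units were recovered, with 10 false calls. Alternatives covered array weights, normalization, filters, added constants, probe set averaging, replicate and cluster blocks, and each treated array left out in turn.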

Additional observations from a re-analysis of the deposited data

Results flagged for a closer look

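In Gja1 probe set 1438650_x_at, 1 untreated WT array stood apart from the other 3 untreated WT arrays. It was the highest at 3.17, below the level of 5 that counts as measurable. Among 24 groups of 4 arrays checked this was the 1 such array, and chance gives about 1 in 20 groups.

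In Amot probe set 1425907_s_at the difference between D- and WT cells changed between 2 and 24 h by -0.44 ± 0.14 log2 units (limma adjusted p = 0.0456). The D- means were 6.81 at 2 h and 6.30 at 24 h, and the WT means were 6.29 at 2 h and 6.23 at 24 h. The brightest Amot probe set gave 0.67 ± 1.08 for the same change.

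In the probe set shared by Slfn4 and Slfn3 the line difference was larger at 24 h than at 2 h by 1.87 ± 0.50 log2 units (limma adjusted p = 0.0195). Its D- means were 5.37 at 2 h and 5.50 at 24 h, and its WT means were 5.24 at 2 h and 3.50 at 24 h. The WT mean at 24 h was too dim to place, and the set passed the filter only through its D- arrays, so that p-value is descriptive. The Slfn4 probe set gave 0.63 for the same change (limma adjusted p = 0.539), and Slfn3's own probe set averaged 5.83 at 2 h and 4.12 at 24 h in WT cells.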

How the results depend on the processing

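For the 14 line differences of the 5 genes at treated times that have a fold or bound, 257 of 263 alternatives kept direction and call, and none reversed. Rgl3, Slfn4 and Gja1 passed the filter only through D- arrays and had to differ between the lines, so their kept calls are descriptive. The 6 that lost the call were Amot at 2 h without WT 2 h replicate 2 (2.92) and 5 within the cluster of 10: Amot 2.20, 2.24 and 2.11 at 2, 6 and 24 h, Rgl3 2.84 and Acot1 3.91 at 2 h (for these genes fitted values against WT means under 5). Within that cluster each treated group has 1 array, and the spread came from 2 residual degrees of freedom. Over single arrays left out, these Amot differences ran from 2.92 to 3.75 at 2 h. Called probe sets over the array numbered 770, 882 and 3709 at 2, 6 and 24 h. They became 1552, 2796 and 5625 with array weights, 1417 and 1610 (2 and 6 h) with the cluster as a block, 1663 and 1725 (2 and 6 h) within the cluster of 16, 25, 68 and 636 within the cluster of 10, and 575 and 2292 (6 and 24 h) with the mean of a gene's probe sets. With 1 array left out they ran from 430 to 815, 516 to 959 and 2571 to 4313. Small steps reversed sign. Slfn4 in D- cells from 2 to 6 h was -0.01 within the cluster of 16 and ran from -0.25 to 0.38 over left-out arrays, and from 6 to 24 h was -0.15 within the cluster of 10 and 0.84 within the cluster of 16 (limma adjusted p = 0.00473). Gja1 in D- cells from 6 to 24 h ran from -0.37 to 0.02, and Amot in WT cells from 6 to 24 h from -0.45 to 1.10. The change in line difference was -0.09 (Amot) and 0.33 (Rgl3) within the cluster of 10, and for Rgl3 ran from -1.15 to 0.21 over left-out arrays. In all, 22 alternatives of steps and changes in line difference passed where the reported one had not, among them Slfn4's change in line difference within the cluster of 16 (0.91, limma adjusted p = 0.0237) and Rgl3 in D- cells from 6 to 24 h with 32 added before log2 (0.77, limma adjusted p = 0.0465), and 7 lost a call, all for Acot1 in D- cells from 2 to 6 h. The causes were not tested. Deviations of same-numbered D- and WT arrays correlated at 0.0353 to 0.501, all positive, and those of different-numbered arrays at -0.425 to 0.377. Not all same-numbered values were over 0.1, so the main fit did not take the numbers as pairs. Whether same-numbered arrays shared a source was not tested. With the replicate block the counts were 1113, 1226 and 4467, Amot was 3.27, 3.73 and 3.95 with all 3 calls kept, and 2 Acot1 results passed that had not: the D- step from 6 to 24 h (1.30, limma adjusted p = 0.0231) and the change in line difference (1.69, limma adjusted p = 0.0498).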
